A study of Mus musculus with 4 samples.

Results

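A set of 10 genes that oestrogen classically raises in the epithelium of the mouse uterus were examined by RNA sequencing of whole uterus on gestational day 4: Ltf, Lcn2, Clu, Greb1, Padi1, Padi2, Sprr2f, Sprr2g, Sprr2a2 and Sprr2b. They were chosen by name, and 8 of the 10 were found by symbol in the deposited TPM table of 19991 genes. Sprr2a2 and Sprr2b, which that table leaves out for low counts, were found by gene ID among the 57186 genes of the count table. There were 2 knockout libraries from Prss29Cre/Cre;Pgrf/f (Pgr gecKO) uterus and 2 control libraries from wild-type uterus. Both Prss29 alleles of the knockout carry Cre recombinase. Prss29 is a gland protease gene, so the floxed progesterone receptor gene Pgr is meant to be lost from gland epithelium and kept elsewhere. The groups also differ in Cre and in the Prss29 locus, and these cannot be told apart from the loss of Pgr. The labels used here give neither strain nor age, and do not say whether each library came from a separate animal.

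In uterine epithelium, oestrogen acts through the receptor encoded by Esr1, which binds DNA at palindromic response elements or through other factors and switches on secretory and growth genes. Progesterone, acting through Pgr, restrains much of that programme around implantation. Oestrogen-raised products include secreted iron-binding and antimicrobial proteins, enzymes that convert arginine to citrulline, and small proline-rich proteins best known as cross-linked parts of the cornified envelope of squamous cells.

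Total counts were between 29932153 and 35149834 per library, so counting error was small for most members. Pgr itself stood at 130.1 and 146.2 CPM in the knockouts and at 140.5 and 138.6 CPM in the controls, in a tissue where muscle, stroma and lumen also transcribe it. Prss29 had 0 and 0 counts in the knockouts, against 1524 and 190 counts in the controls. Esr1 was at 276.3 and 243.5 CPM in the knockouts and at 279.2 and 274.0 CPM in the controls, with a log2 fold change of −0.090 (SE 0.24). CPM are counts scaled to library size with TMM factors, and TPM are the authors' values per length of gene. Markers of epithelium, smooth muscle and stroma were all present, with 10 of 10 genes tested in each list, as the label whole uterus implies. In such bulk tissue, fewer cells of a type and less RNA per cell cannot be told apart.

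None of the 8 members that could be tested was called different between knockout and control (edgeR quasi-likelihood test, Benjamini-Hochberg over 20950 genes, threshold 0.05). In the same test 1 gene of 20950 was called, or 0.00477%, and it lay on the higher side. At an unadjusted p under 0.05 there was 1 member higher, Padi1, against 1.22% of all tested genes, and 1 lower, Lcn2, against 1.79%. In either direction 3.01% of all tested genes passed that level. DESeq2 called 1 member, Lcn2, as lower, against 0.206% of its genes called lower and 0.403% in either direction, and limma-voom called 0 members and 0 genes. Knockout and control values did not overlap for the same 2 of 8 tested members, against 25.3% of all tested genes, 12.2% with the knockouts above and 13.1% with the knockouts below. The median log2 fold change was 0.26 over the 8 members and 0.0063 over all tested genes.

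The sequences below set out Sprr2g, the tested member with the widest spread between libraries, and its neighbour Sprr2f on chromosome 3. The lines give the plus strand coding sequence from GENCODE release M21 (GRCm38), with capitals where the other sequence differs or has no base in a global alignment.
Sprr2f coding sequence: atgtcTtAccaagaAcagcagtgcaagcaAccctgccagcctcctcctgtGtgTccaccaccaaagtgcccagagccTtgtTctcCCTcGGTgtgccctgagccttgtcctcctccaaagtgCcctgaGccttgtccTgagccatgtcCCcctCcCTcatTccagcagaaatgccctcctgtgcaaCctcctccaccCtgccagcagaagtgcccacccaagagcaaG
Sprr2g coding sequence: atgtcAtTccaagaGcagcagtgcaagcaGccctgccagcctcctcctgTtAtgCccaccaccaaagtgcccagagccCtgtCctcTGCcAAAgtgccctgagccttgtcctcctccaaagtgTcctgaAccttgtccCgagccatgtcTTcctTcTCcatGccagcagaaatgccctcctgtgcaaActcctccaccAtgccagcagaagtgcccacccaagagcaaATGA
The Sprr2f coding sequence is 228 bases and that of Sprr2g 232, and 87.1% of the aligned columns are identical. No stretch of 150 bases, the read length, of either transcript occurs in another Sprr2 transcript, so full-length reads without errors can be assigned to 1 of the 2. The Sprr2g sequence printed belongs to a transcript that GENCODE classes as a polymorphic pseudogene, while its other transcript is classed as protein coding. RefSeq lists the gene as a transcribed pseudogene and the deposited table as protein coding. For Sprr2a2, 89% of such stretches are shared with other Sprr2 genes, so its count is uncertain, and Sprr2b shares 0 stretches.

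The next sequences are promoters of the most abundant iron-binding member and of Sprr2f, shown for the letters of the oestrogen response element. They run from 250 bases before to 50 bases after the start, from RefSeq (GRCm38.p6), and capitals mark the core GGTCA, the arm of the element's palindrome, or its reverse complement TGACC.
Ltf promoter, chr9:111019042-111019341, plus strand: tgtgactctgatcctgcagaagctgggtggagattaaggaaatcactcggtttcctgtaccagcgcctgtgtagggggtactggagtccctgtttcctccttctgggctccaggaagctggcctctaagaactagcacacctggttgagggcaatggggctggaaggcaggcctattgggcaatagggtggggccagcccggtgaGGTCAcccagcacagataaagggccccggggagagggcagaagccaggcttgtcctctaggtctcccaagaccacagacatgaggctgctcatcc
Sprr2f promoter, chr3:92364937-92365236, plus strand: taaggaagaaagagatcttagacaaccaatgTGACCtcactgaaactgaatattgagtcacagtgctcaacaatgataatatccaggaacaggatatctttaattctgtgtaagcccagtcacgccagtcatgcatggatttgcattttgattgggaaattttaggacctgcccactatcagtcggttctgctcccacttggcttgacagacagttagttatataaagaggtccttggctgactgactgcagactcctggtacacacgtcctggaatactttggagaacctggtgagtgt
Promoter sequences were at hand for 8 of the 10 members, leaving Clu and Sprr2g. This core was present, on either strand, in promoters of 3 of them, Ltf, Greb1 and Sprr2f, and in 40.5% of all 32851 promoters. The full palindrome GGTCANNNTGACC, which contains the core on each strand, was present in 0 of the 8 and in 0.07% of all promoters. The members were counted as genes, Greb1 having more than a single promoter, whereas the percentages count promoters. These matches are descriptions of letters in this window, and sequence outside it was not searched.

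The levels of the members spanned a wide range. Averaged over the 4 libraries, Clu was the most abundant at 116.3 TPM, followed by Sprr2f at 106.6, Sprr2g at 90.7, Ltf at 49.2, Padi1 at 41.5, Padi2 at 24.7, Greb1 at 9.45 and Lcn2 at 8.98 TPM. Every neighbouring pair in this order overlapped between libraries. Clu was between 99.4 and 136.6 TPM and Sprr2f between 48.0 and 146.7 TPM, for example.

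**Figure D1:**
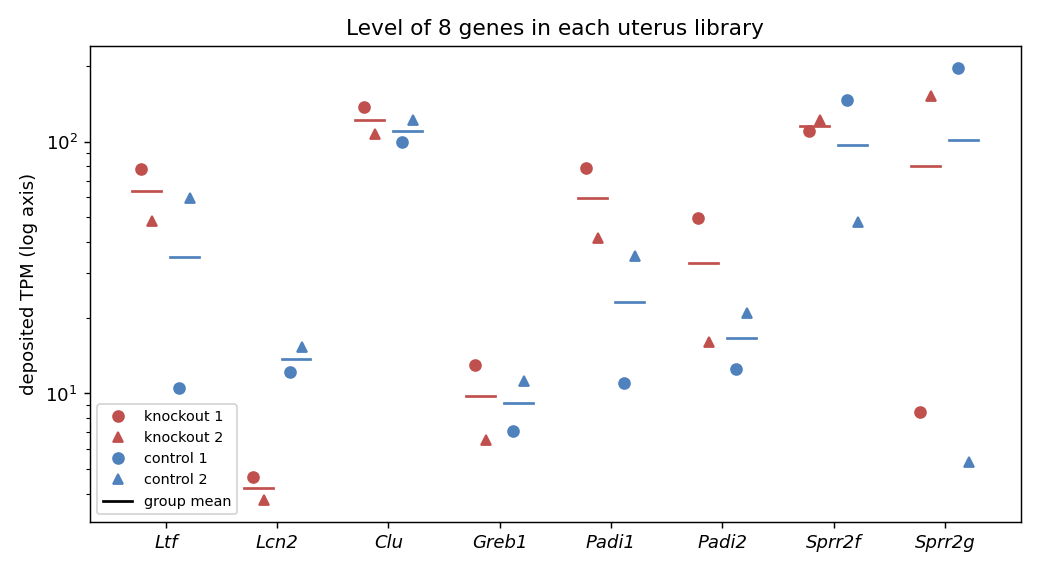
Deposited TPM on a log axis for the 8 members in the TPM table, with each library as a point (red knockout, blue control, circle replicate 1, triangle replicate 2) and a bar at the group mean. Lcn2 and Padi1 are the members whose knockout and control points do not overlap, Lcn2 with the knockouts below and Padi1 with the knockouts above, while Sprr2g splits each group into a high and a low library.

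Among the secreted proteins, Lcn2 was lower in both knockouts, although it was not called over all genes. Lcn2 encodes lipocalin 2, which binds the siderophores that bacteria use to take up iron. It stood at 3.69 and 3.46 CPM in the knockouts, against 9.99 and 12.5 CPM in the controls. Both knockout libraries lay below both controls, and the replicates of each group were close together. The knockout mean was 3.57 ± 0.163 CPM and the control mean 11.2 ± 1.78 CPM (SD, n = 2 each). The knockout was 3.15-fold lower, with a log2 fold change of −1.65 (SE 0.33, 95% interval −2.44 to −0.86). Its edgeR unadjusted p was 0.00176 and its adjusted p 0.614, whereas the DESeq2 adjusted p was 0.00618. Of the 8 tested members only Lcn2 and Padi1 had an interval that excluded 0.

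Other defence and cell type genes gave the following values beside Lcn2. A list of defence genes of epithelium, with some of neutrophils, held 11 tested genes, not all of them secreted. Of these, 9 had a log2 fold change below 0 and 0 were called in either direction. Both knockouts lay below both controls for 5 of them and above for 1. Over all tested genes these shares were 13.1% below and 12.2% above. Spink1, a trypsin inhibitor, was at 10.8 and 8.34 CPM in the knockouts, against 26.8 and 58.1 CPM in the controls. Lyz1, a lysozyme gene, was at 5.74 and 6.63 CPM in the knockouts and at 10.6 and 18.2 CPM in the controls. Pigr, the receptor that carries IgA across epithelium, went the other way, with 152.6 and 86.3 CPM in the knockouts and 43.1 and 73.8 CPM in the controls.

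The gland, macrophage and urothelium and oviduct marker lists had lower sums in both knockouts, as Lcn2 did. The 10 gland epithelium markers, among them Prss29 itself, summed to 169.4 and 166.0 TPM in the knockouts, against 465.9 and 427.7 TPM in the controls. Both knockouts lay below both controls for 7 of the 10 and above for 1, and 2 had a log2 fold change above 0. Large parts of the control sums came from Spink1 and, in control 1, from Prss29, the locus that carries Cre. Spink1 is in both this list and the defence list, at 48.8 and 32.8 TPM in the knockouts and 117.8 and 255.7 TPM in the controls. Prss29 was at 0 and 0 TPM in the knockouts and 118.0 and 14.6 TPM in the controls. Cxcl15, with a log2 fold change above 0, was at 55.4 and 97.8 TPM in the knockouts and 44.4 and 58.2 TPM in the controls. The gland sum is therefore no measure of gland content by itself. The 10 macrophage markers summed to 822.9 and 814.3 TPM in the knockouts and to 1140 and 1477 TPM in the controls. For 8 of these 10 both knockouts lay below both controls, against 13.1% of all tested genes. The urothelium and oviduct markers summed to 34.2 and 36.2 TPM in the knockouts and to 39.0 and 48.6 TPM in the controls. Most of that list did not go with its sum, since 3 of its 4 tested markers had a log2 fold change above 0. The lower sum came from Ovgp1, at 16.5 and 22.7 CPM in the knockouts and 29.3 and 36.2 CPM in the controls. Neutrophils also store lipocalin 2 and lactoferrin. Their 12 markers together had 286 and 360 counts in the knockouts and 290 and 838 counts in the controls, and 11 of the 12 overlapped between the groups. Some of these markers are also in the defence list. The granule genes were low in all libraries, with Mpo at 2 and 17 counts in the knockouts and 15 and 7 in the controls, and Camp at 1 and 4 counts in the knockouts and 10 and 1 in the controls. Mmp9 had more counts than these, at 98 and 146 counts in the knockouts and 83 and 441 in the controls. The part of gland, macrophage, oviduct and neutrophil content in the Lcn2 difference was not tested.

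Ltf was low in 1 control library. Ltf encodes lactoferrin, the iron-binding secretory protein long used as an oestrogen marker of mouse uterus. It stood at 81.6 and 58.6 CPM in the knockouts, against 11.3 and 64.0 CPM in the controls. Control 1 was low and the other 3 libraries lay close together, so the groups overlapped. The means were 70.1 ± 16.3 CPM in the knockouts and 37.6 ± 37.2 CPM in the controls (SD, n = 2 each). The log2 fold change was 0.90 (SE 0.69, 95% interval −0.74 to 2.53). The result rested on that library. Without control 1 the log2 fold change was 0.14, and without control 2 it was 2.63 with an edgeR adjusted p of 0.0342, set against control 1 alone. Control 2 was 5.66-fold above control 1, and 1.80% of all tested genes had a gap between the controls at least as large.

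Clu, which encodes the secreted chaperone clusterin, was the steadiest member. It stood at 142.1 and 129.1 CPM in the knockouts and at 106.8 and 130.3 CPM in the controls, and the groups overlapped. Its log2 fold change was 0.19 (SE 0.22), and the 95% interval of −0.34 to 0.72 leaves out any fold above 1.65.

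Greb1, a nuclear gene that is an early target of the oestrogen receptor in human breast cancer cells, where its product binds that receptor, did not separate the groups. It stood at 37.7 and 21.8 CPM in the knockouts and at 21.3 and 33.3 CPM in the controls. 1 library of each group was high and 1 low, and the knockout mean of 29.8 ± 11.2 CPM was within the spread of the control mean of 27.3 ± 8.49 CPM (SD, n = 2 each). Its log2 fold change was 0.12 (SE 0.35, 95% interval −0.71 to 0.96), and it turned to −0.15 without control 1 and to −0.32 without knockout 1.

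The peptidyl arginine deiminases convert arginine in proteins to citrulline. Padi1 stood at 89.1 and 54.2 CPM in the knockouts, against 12.95 and 41.2 CPM in the controls. Both knockouts lay above both controls, with control 1 far below the other 3 libraries. The means were 71.6 ± 24.7 CPM in the knockouts and 27.1 ± 19.998 CPM in the controls (SD, n = 2 each). The knockout was 2.64-fold higher, with a log2 fold change of 1.40 (SE 0.53, 95% interval 0.14 to 2.67). The edgeR unadjusted p was 0.0341 and the adjusted p 0.99998. Without control 1 the log2 fold change was 0.81 and without control 2 it was 2.47, and neither passed after adjustment.

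Padi2, also on chromosome 4, stood at 75.2 and 28.1 CPM in the knockouts and at 19.6 and 32.5 CPM in the controls. Knockout 1 was the high library and the other 3 lay between 19.6 and 32.5 CPM, so the groups overlapped. Its log2 fold change was 0.99 (SE 0.48, 95% interval −0.15 to 2.12), and without knockout 1 it was 0.11. Of the 3 other deiminase genes, Padi4, best known from neutrophils, was at 20.7 and 20.6 CPM in the knockouts and at 19.9 and 16.2 CPM in the controls. Padi3 had at most 13 counts in any library and Padi6 at most 5.

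**Figure D2:**
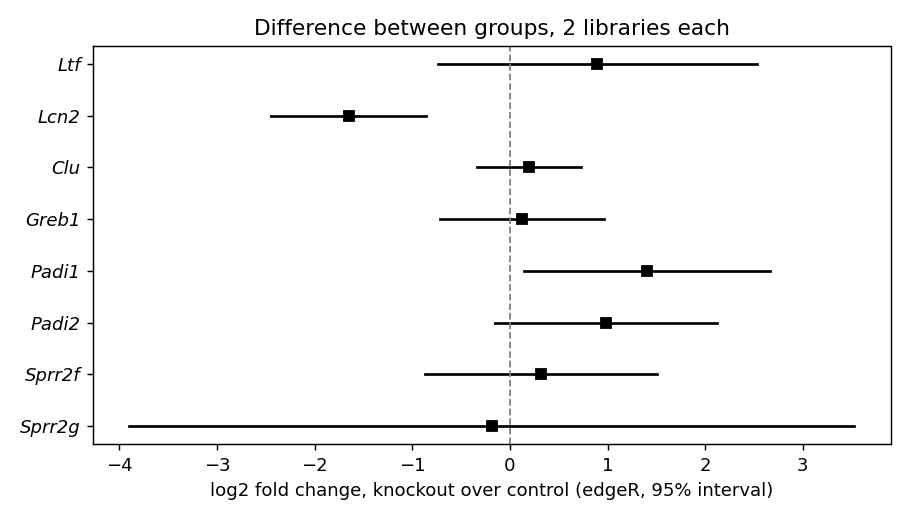
Log2 fold change of knockout over control for the 8 tested members (squares), with 95% intervals from the edgeR fit on 2 libraries per group. The intervals of Lcn2 and Padi1 exclude 0, in opposite directions, and the interval of Sprr2g runs from −3.90 to 3.53.

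Control 1 had the lowest Ltf, Padi1, Padi2 and Clu of the 4 libraries. In CPM it also had the lowest Greb1, just below knockout 2, whereas Sprr2f and Sprr2g were highest in control 1. Control 1 also had the lowest sums of the epithelial and luminal marker lists, though not of every marker. The 10 epithelial markers summed to 3445 and 2965 TPM in the knockouts, against 2667 TPM in control 1 and 3861 TPM in control 2. The 8 luminal markers summed to 1008 and 924.3 TPM in the knockouts, against 635.0 TPM in control 1 and 1173 TPM in control 2. Single markers went both ways, since the abundant Krt19 and the luminal Calb1 were lowest in control 1, while Epcam, Cdh1 and the luminal Wnt7a were highest there. The abundant Cldn3 was lowest in control 1 in CPM only. In TPM, the unit of the sums, Cldn3 was at 815.9 in control 1 and lower, at 750.3, in knockout 2. The gland sum was highest in control 1 as well. Set against 1000 counts of the epithelial markers, Ltf had 41.4 and 28.3 counts in the knockouts, against 6.499 in control 1 and 27.8 in control 2, so control 1 remained the low library. On the same scale Padi1 had 45.2 and 26.2 counts in the knockouts, against 7.44 and 17.9 in the controls. Scaled to these markers in the fit, Padi1 was called higher, with a log2 fold change of 1.49 and an edgeR adjusted p of 0.0359. With that scaling 145 genes were called in all, or many more than the 1 gene of the usual scaling. The p-values of that fit hardly reflected each gene's own spread between replicates. Clu and Sprr2f both had a log2 fold change of 0.19 and an edgeR unadjusted p of 0.65 there. Their standard errors with the usual scaling were 0.22 and 0.50. The Padi1 call with that scaling therefore takes little account of the gap between its controls.

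**Figure D3:**
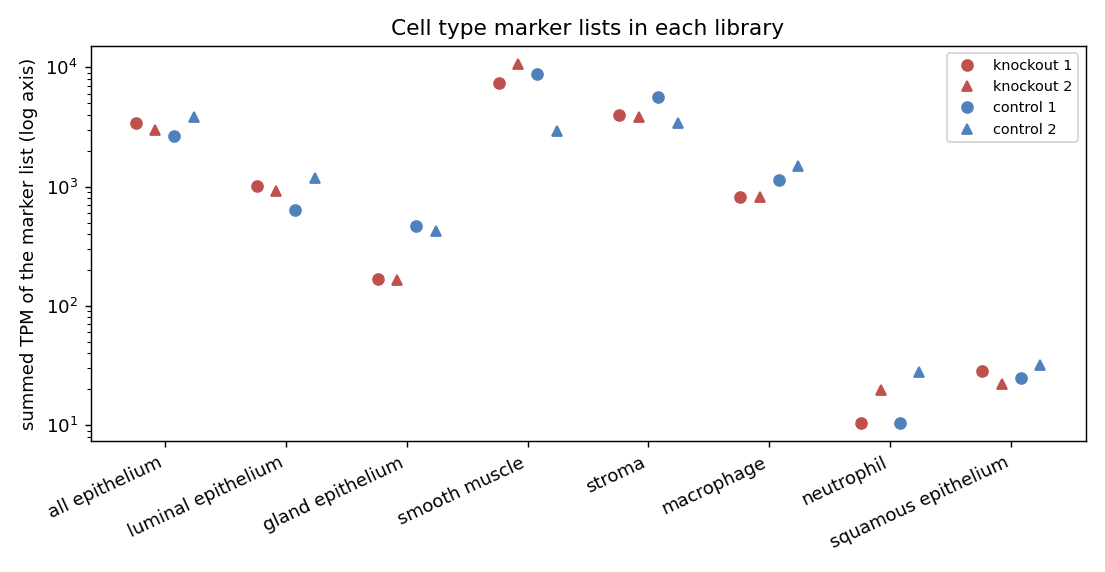
Summed TPM of each cell type marker list on a log axis, with each library as a point (red knockout, blue control, circle replicate 1, triangle replicate 2). Gland and macrophage sums are lower in both knockouts, the epithelial lists overlap, control 1 has the lowest luminal sum and control 2 the lowest smooth muscle sum.

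Sprr2f and Sprr2g, the abundant small proline-rich members, differed more between the 2 controls than between the group means. Sprr2f stood at 20.3 and 25.8 CPM in the knockouts, against 27.9 and 9.12 CPM in the controls. Control 2 was the low library and control 1 the high one, with both knockouts between them. Its log2 fold change was 0.32 (SE 0.50, 95% interval −0.87 to 1.503), and it turned to −0.28 without control 2.

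Sprr2g stood at 1.66 CPM in knockout 1 and 34.6 CPM in knockout 2, against 40.0 CPM in control 1 and 1.08 CPM in control 2. 1 library of each group was high and 1 low. Knockout 2 was 20.8-fold above knockout 1, and 0.516% of all tested genes had a gap between the knockouts at least as large. Control 1 was 37.0-fold above control 2, and 0.248% of tested genes had a gap as large there. The gaps exceeded counting error, since the 95% exact Poisson interval was 1.25 to 2.16 CPM in knockout 1 and 32.4 to 36.8 CPM in knockout 2. Intervals cover counting error only. The log2 fold change between the groups was −0.18 (SE 1.56), and the 95% interval of −3.90 to 3.53 allows a large difference in either direction.

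The ratio of Sprr2g to its neighbour Sprr2f took 2 levels. In counts it was 0.0820 in knockout 1 and 1.34 in knockout 2, against 1.43 in control 1 and 0.119 in control 2. Sprr2g thus made up 7.58% of the counts of both genes in knockout 1 (95% exact binomial interval 5.76 to 9.75) and 57.2% in knockout 2 (54.8 to 59.6). In control 1 it made up 58.9% (56.9 to 60.9) and in control 2 10.6% (7.62 to 14.3). The intervals of knockout 2 and control 1 overlapped, as did those of knockout 1 and control 2. The 10 smooth muscle markers summed to 7391 and 10689 TPM in the knockouts, against 8722 TPM in control 1 and 2933 TPM in control 2. The squamous markers of the TPM table, from cell types of cervix and vagina that also transcribe Sprr genes, summed to 28.4 and 22.0 TPM in the knockouts and to 24.7 and 32.2 TPM in the controls. Their part in the Sprr2g levels was not tested.

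**Figure D4:**
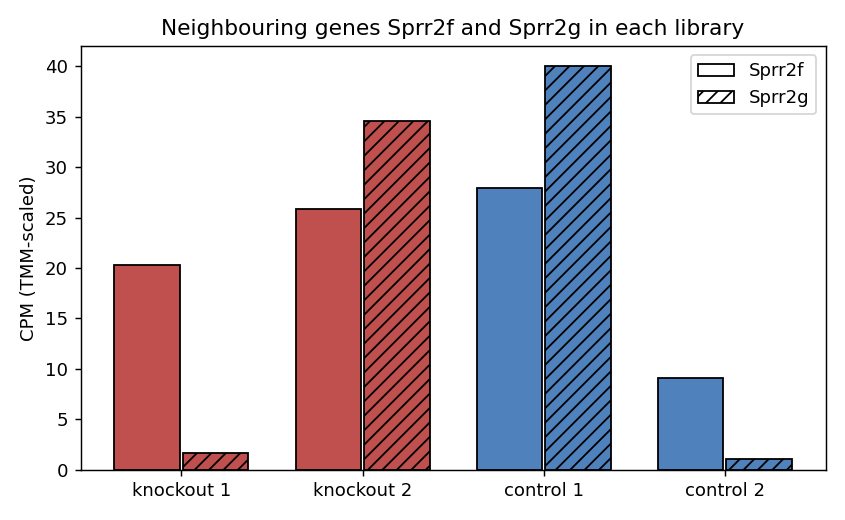
CPM of Sprr2f (plain bars) and Sprr2g (hatched bars) in each library, knockouts in red and controls in blue. Sprr2f lies between 9.12 and 27.9 CPM in all 4 libraries, while Sprr2g is at 34.6 and 40.0 CPM in 1 library of each group and at 1.66 and 1.08 CPM in the other.

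The remaining copies had few counts. Sprr2b had 2 and 1 counts in the knockouts, against 16 and 7 in the controls. The knockout was 6.71-fold lower over the pooled libraries, with a 95% exact binomial counting interval of 2.03 to 34.9. That interval leaves out the spread between libraries, so it is no test of the groups, and the gene was too low to be tested. Sprr2a2 had 0 and 3 counts in the knockouts and 0 and 0 in the controls, all at or under a floor of 3 counts, which is at most 0.107 CPM. Because its sequence is shared, the 3 Sprr2a loci were also summed, giving 8 and 14 counts in the knockouts, against 70 and 5 in the controls. Together Sprr2f and Sprr2g held between 95.5% and 99.1% of the counts of the 12 Sprr2 genes in each library. Of 12 other small proline-rich genes, 7 had 0 counts in all libraries. Sprr1a, of another branch of the family, was the only one of these 12 with enough counts to be tested, at 3.72 and 1.75 CPM in the knockouts and 1.18 and 0.427 CPM in the controls. Its log2 fold change was 1.76 (SE 0.67) and its edgeR adjusted p 0.99998.

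A list of 22 other genes that oestrogen raises in the uterus also held members on both sides. All 22 were tested and 0 were called in either direction, with 9 above 0 and 13 below 0 and a median log2 fold change of −0.034. At an unadjusted edgeR p under 0.05 there were 3 higher and 1 lower, against 1.22% and 1.79% of all tested genes. Both knockouts lay above both controls for 5 of the 22 and below for 3, against 12.2% and 13.1% of all tested genes. Clca1, whose product is secreted by goblet and mucous cells, was at 73.9 and 34.3 CPM in the knockouts, against 0.144 and 1.25 CPM in the controls. Inhbb, the inhibin and activin beta B subunit, was at 23.0 and 33.0 CPM in the knockouts and at 9.53 and 11.4 CPM in the controls. The water channel gene Aqp8 was at 7.56 and 4.38 CPM in the knockouts and at 3.17 and 2.17 CPM in the controls. In all 3 both knockouts lay above both controls. Fgf9, a growth factor of uterine epithelium, was at 0.967 and 1.39 CPM in the knockouts and at 5.73 and 2.22 CPM in the controls. For Fgf9 both knockouts lay below both controls. C3, complement component 3 and a classical oestrogen target, was at 159.5 and 247.9 CPM in the knockouts and at 457.5 and 112.0 CPM in the controls, and the groups overlapped. A list of steroid receptors, coregulators and other transcription factors, among them Hand2 and Nr2f2, held 12 tested genes. Of these, 0 were called, and their log2 fold changes lay between −0.24 and 0.13.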

How the data were processed

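RNA from whole uterus was sequenced in 2 knockout and 2 control libraries as paired reads of 150 bases. The authors used Trimmomatic, STAR with GRCm39, and featureCounts, per the submitters' processing notes. The strand setting is not given in the sources used, so counts of overlapping or near-identical genes are uncertain. The authors deposited raw counts for 57186 genes and TPM for 19991 of them, each with a total count of at least 51.

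Counts were tested by quasi-likelihood in edgeR 4.0.16 (R 4.3.3), with a group term, TMM scaling and the filterByExpr filter (minimum count 10, minimum total 15), which kept 20950 genes. P-values were adjusted by Benjamini-Hochberg over all tested genes. Standard errors were derived from the F statistic. Symbols of Sprr2a2 and Sprr2b came from a reference table. The spread behind the p-values is between samples and may be technical. With scaling to epithelial markers the p-values hardly reflected each gene's own spread. A floor of 3 counts equals between 0.0855 and 0.107 CPM. Replicates differed beyond sampling noise, with a chi-square per degree of freedom of 91.0 for the knockouts and 95.4 for the controls.

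Members and gene lists were chosen with earlier results of these data known, so no p adjusted over a list and no set test is given. All 10 members are named, with Pgr and Prss29. From the other lists, up to 3 genes with the smallest p and up to 2 of the most abundant could be named, and Esr1, C3, Aqp8, Padi3, Padi6, Mpo, Camp, Wnt7a and the neutrophil counts were chosen after their values were seen. Alternatives were RLE, upper-quartile and total-count scaling, scaling to epithelial markers, DESeq2 1.42.0, limma 3.58.1 with voom, 2 other filters, limma on log2(TPM + 1) and log2(TPM + 0.1), a replicate block and leaving out each library. Summed marker levels cover the markers present in the TPM table. The fit was also tested on simulated data. Sequences come from RefSeq (GRCm38.p6) and GENCODE M21 (GRCm38) and not from the build of the counts.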

Additional observations from a re-analysis of the deposited data

How the results depend on the processing

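The number of genes called moved from 1 to 145 with scaling to epithelial markers, 54 with no low-count filter, 90 with DESeq2, 0 with limma-voom, 3 with log2(TPM + 1) and 6 with log2(TPM + 0.1). It was between 16 and 49 when 1 library was left out. The cause was not tested. Sprr2a2 and Sprr2b had too few counts to be tested at this depth. Members called were 0 with all libraries, 1 with scaling to epithelial markers (Padi1), 1 with DESeq2 (Lcn2) and between 0 and 1 with 1 library left out, the 1 being Ltf without control 2. Members whose groups did not overlap were 2 of 8 with 25.3% of all tested genes, 3 of 8 with RLE factors and with DESeq2 (25.3% of genes in each), where Clu joined, and 4 of 8 with scaling to epithelial markers (18.6% of genes), where Clu and Ltf joined.

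The groups share replicate numbers, but no label says that a number marks a shared animal, litter or day, and the deviations of same-numbered libraries correlated at −0.44 across genes. With the replicate block 32 genes and 0 members were called. With the numbers crossed, a pairing added after seeing the data, 37 genes and 0 members were called.

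Lcn2 kept its direction in all 16 alternatives, at −1.79 to −1.48, and so did Clu, Padi1, Padi2 and Ltf. Greb1 ranged from −0.32 to 0.48 and Sprr2f from −0.28 to 1.35 with 1 library left out. Sprr2g changed sign, at 0.16 with the replicate block, 0.10 with the crossed block, 0.13 with limma-voom, 0.10 with log2(TPM + 1) and 0.14 with log2(TPM + 0.1), and it ranged from −3.63 to 4.08 with 1 library left out.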
